A study of Mus musculus with 212 samples.

Results

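The 2 arms of miR-9, the 2 arms of miR-124, the miR-9 host transcript Mir9-3hg and the target transcripts Ptbp1, Rest and Onecut2 were followed across brains of the LXS recombinant inbred mice. These 8 members were chosen by name: 4 are among 881 features of the small RNA table and 4 among 27123 rows of the mRNA table. The small RNA libraries come from right brain hemispheres of untreated mice. The labels list 212 libraries, and 211 of them name a strain without conflict. Every LXS strain descends from a cross of ILS and ISS, inbred lines that were selected for long and short sleep after ethanol. The miRNA table holds 1 value made by the authors for each of 59 LXS strains, from 2 to 7 libraries of 2 to 3 mice. Titles of some libraries carry the tag HIGH (8 strains), MED (9) or LOW (10), while 32 strains have no tag, and no source used here says which property these tags rank. Within these counts LXS80 is tagged MED and LXS41 LOW. The parents, outside these counts, carry tags too, MED for ILS and HIGH for ISS. The mRNA profiles used were 6 of ILS, 6 of ISS, 6 of LXS80 and 5 of LXS41. Of these 4 strains, only LXS80 and LXS41 are also in the miRNA table. The other 376 of 399 mRNA columns were not used, as described at the end, so further strains were not compared here. Age, sex and the tissue of the mRNA profiles are not stated in the sources used.

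miR-124 is a hallmark miRNA of neurons, and miR-9 is abundant in neural progenitors and in neurons. Each is cut from a hairpin precursor that yields a 5p and a 3p arm, of which 1 is usually far more abundant. REST is a repressor that keeps neuronal genes, those of miR-9 and miR-124 among them, silent in other cell types, and miR-9 in turn represses Rest. miR-124 represses Ptbp1, an RNA-binding protein that blocks neuronal splicing, and with it many transcripts of non-neuronal cells. Onecut2 is a transcription factor whose transcript is a target of miR-9, and Mir9-3hg is the long non-coding RNA in which the Mir9-3 hairpin lies.

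The sequences of the miR-9 arms show why their values are sums over loci: all 3 miR-9 hairpins carry the same pair of arms, so a read of an arm cannot be given to a host gene. The mature sequences from RefSeq (GRCm38.p6) are printed 5′ to 3′ with the seed, bases 2 to 8, in capitals.
mmu-miR-9-5p: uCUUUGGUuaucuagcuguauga
mmu-miR-9-3p: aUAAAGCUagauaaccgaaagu
The hairpins, with both arms in capitals, differ in the bases between the arms and at the ends.
Mir9-1: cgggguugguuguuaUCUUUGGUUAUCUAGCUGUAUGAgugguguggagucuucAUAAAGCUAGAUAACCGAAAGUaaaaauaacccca
Mir9-2: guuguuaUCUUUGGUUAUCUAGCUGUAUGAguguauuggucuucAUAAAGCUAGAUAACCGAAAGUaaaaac
Mir9-3: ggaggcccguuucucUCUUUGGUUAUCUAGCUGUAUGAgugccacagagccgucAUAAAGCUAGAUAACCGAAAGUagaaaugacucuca
Mir9-1 lies at chr3:88215598-88215686, Mir9-2 at chr13:83738814-83738885 within the long non-coding RNA C130071C03Rik, and Mir9-3 at chr7:79505264-79505353 within Mir9-3hg, all on the plus strand in that build. The 5p arm has 23 bases and the 3p arm 22, with 16 bases between them in Mir9-1 and Mir9-3 and 14 in Mir9-2. No other miRNA of the RefSeq table had the seed of either arm. The miRNAs below are among those that followed a member most closely over the strains before removal of batch effects, as described later. None of their seeds is that of a miR-9 arm.
mmu-miR-30a-5p: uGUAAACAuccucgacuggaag
mmu-miR-551b-3p: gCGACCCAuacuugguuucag
mmu-miR-374b-5p: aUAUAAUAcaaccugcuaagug
mmu-miR-125b-2-3p: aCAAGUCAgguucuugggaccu
mmu-miR-106b-5p: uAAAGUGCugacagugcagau
mmu-miR-186-3p: gCCCUAAGgugaauuuuuuggg

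miR-9-5p was the sixth most abundant feature, rank 6 of 881 by mean normalized signal. Its signal ran from 176311 in LXS34 through a median of 547428 to 736458 in LXS107, a 4.18-fold range (497487 ± 159907, SD, n = 59 strains). It made up 1.26% to 5.26% of a strain's summed signal. miR-9-3p ran from 4770 in LXS78 through a median of 8279 to 12677 in LXS97 (8406 ± 1843, SD, n = 59). miR-124-3p, the arm that carries the known function of miR-124, was at rank 33 and ran from 42496 in LXS19 through a median of 101952 to 135291 in LXS39 (95503 ± 25904, SD, n = 59). miR-124-5p, rank 285, ran from 227 in LXS103 through a median of 395 to 514 in LXS110 (390 ± 66.5, SD, n = 59). By coefficient of variation the 5p arm of miR-9 varied most over strains (32.1%) and the 5p arm of miR-124 least (17.1%). Read depth per value is unknown, and in such bulk tissue fewer cells of a type and less RNA per cell cannot be told apart.

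The strongest pattern in miR-9-5p followed the sequencing batch. Batches 1 to 5 held 18, 42, 48, 41 and 62 libraries, and many strains were spread over several of them. Strains of a batch are here those with it as main batch, the one with the largest share of their libraries. Such groups still mix batches: 0 strains were sequenced wholly in batch 2, 3 wholly in batch 3, 2 in batch 4 and 8 in batch 5. Among strains with main batch 3, miR-9-5p had a median signal of 283562 (176311 to 409339, n = 16), and in those of batch 2 it was 397310 (309881 to 736458, n = 12). The medians were 558363 in batch 1 (n = 4), 640263 in batch 4 (n = 9) and 625012 in batch 5 (n = 18). The lowest strains of batches 4 and 5, at 564827 and 530053, lay above the highest strain of batch 3. The 3 strains sequenced wholly in batch 3 (LXS34, LXS103 and LXS66) had 176311, 205237 and 250670, while the 8 strains sequenced wholly in batch 5 ran from 557537 to 736321.

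**Figure D1:**
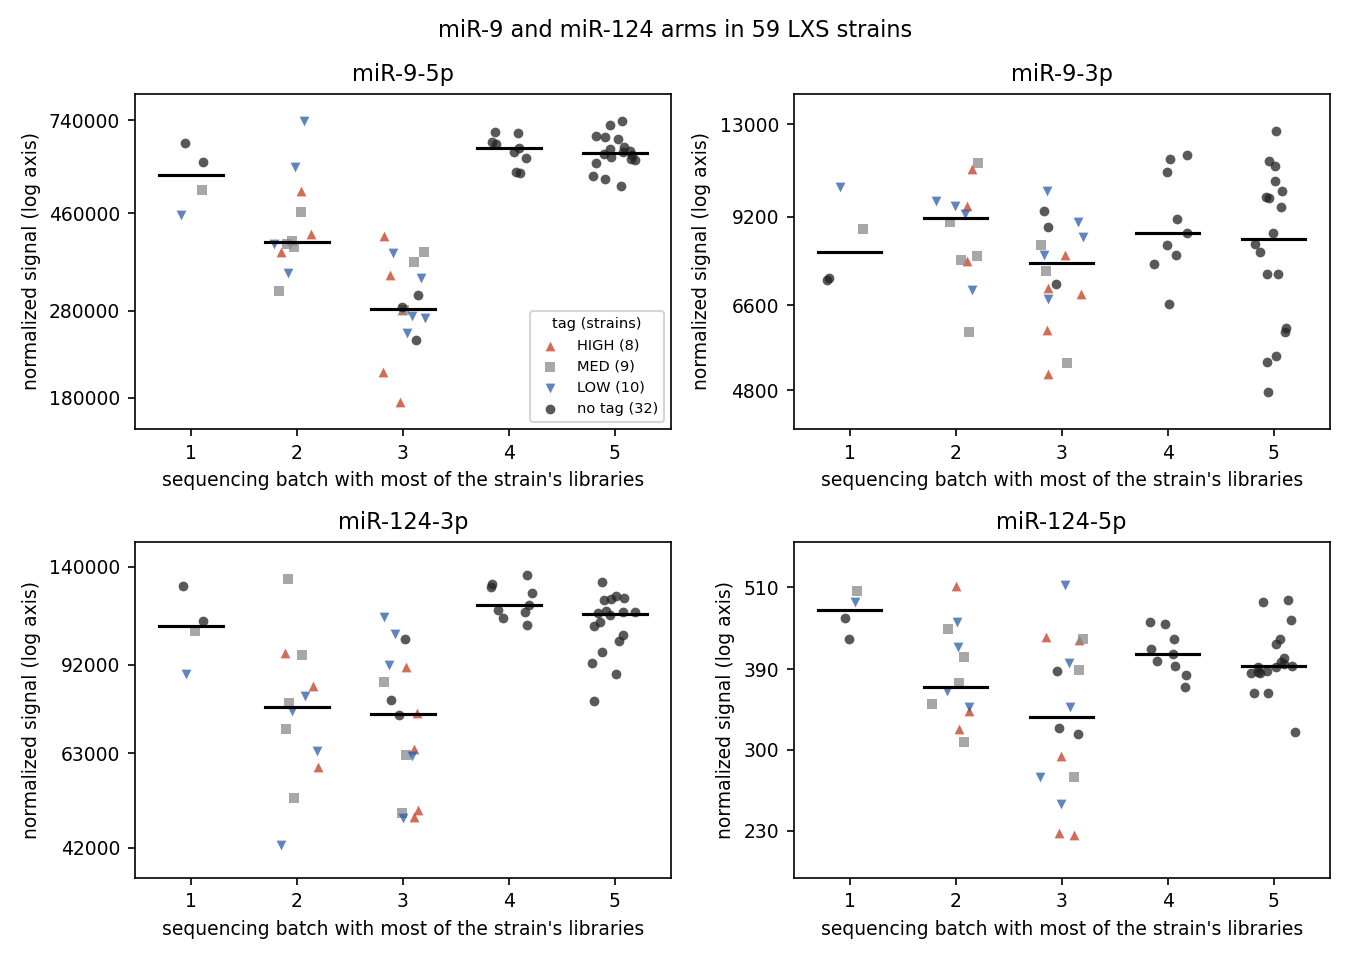
Normalized signal of the 4 arms (log axis) in 59 LXS strains, by main batch, the sequencing batch with the largest share of a strain's libraries. Each point is a strain, marked by the tag in its label, and each bar is the median of its batch. The miR-9-5p bars range from 283562 in batch 3 to 640263 in batch 4, while the miR-9-3p bars stay between 7730 and 9142.

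An F test in limma on batch shares, the fractions of a strain's libraries that came from each batch, called 86.7% of all 647 features tested at an adjusted p under 0.05 (Benjamini-Hochberg, as for all adjusted p-values here). miR-9-5p had the largest F of them all (F = 88.8, adjusted p = 2.01e-21). Batch shares took 86.7% of its log2 variance over strains, rank 1 of 647, followed by miR-24-2-5p (85.4%) and miR-551b-3p (83.7%). Its sister arm stood near the other end: batch shares took 7.95% of the variance of miR-9-3p, rank 626 (F = 1.21, adjusted p = 0.328). Under 5 alternative settings the F of miR-9-3p ranged from 1.21 to 4.89 and its adjusted p from 0.332 to 0.00275. The lack of a call for this arm thus depended on the setting. miR-124-3p (41.0%, F = 9.91, adjusted p = 7.18e-06) and miR-124-5p (40.7%, F = 8.80, adjusted p = 2.31e-05) lay at the middle of all features, whose median was 41.0%. The fitted signal of miR-124-3p for a strain with all libraries in 1 batch was lowest in batch 2, at 65324, and that of miR-124-5p lowest in batch 3, at 286. After removal of batch shares the SD of miR-9-5p over strains fell to 0.20 on the log2 scale, from 0.53, and that of miR-9-3p was 0.33 both before and after.

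**Figure D2:**
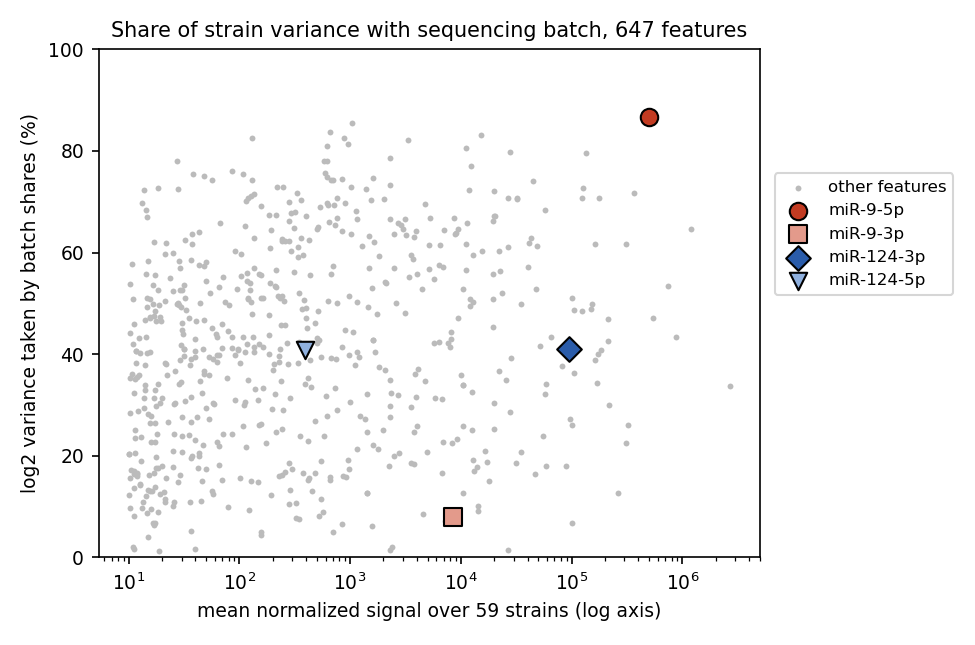
Share of the log2 variance over 59 strains that batch shares took (vertical axis, percent) against the mean normalized signal (log axis), for 647 features. miR-9-5p is the highest point at 86.7% and miR-9-3p is among the lowest at 7.95%, with both miR-124 arms near 41%.

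Sequencing batch and tag were tied to each other, since no strain tagged HIGH or LOW had its main batch in batch 4 or 5, while 9 and 18 of the 32 strains without a tag did. miR-9-5p ran from 176311 through a median of 357233 to 514654 in HIGH strains (n = 8), against 250670, 357480 and 736458 in LOW strains (n = 10). miR-9-3p ran from 5108 through 7405 to 10981 in HIGH strains, against 6765, 9141 and 10277 in LOW strains. miR-124-3p ran from 47909 through 69539 to 96874 in HIGH strains, against 42496, 78041 and 112645 in LOW strains, and miR-124-5p from 227 through 330 to 513 in HIGH strains, against 251, 380 and 514 in LOW strains. The groups overlapped for all 4 arms. With batch shares as covariates, HIGH minus LOW in limma was -0.08 for miR-9-5p (95% interval -0.28 to 0.11), -0.21 for miR-9-3p (-0.52 to 0.10), -0.08 for miR-124-3p (-0.40 to 0.24) and -0.10 for miR-124-5p (-0.31 to 0.11), all on the log2 scale. None of the 4 was called, and 0% of the 647 features were, with 26 at an unadjusted p under 0.05. Among strains with main batch 2 (3 HIGH and 4 LOW) miR-124-3p was 0.30 higher in HIGH strains. Among those with main batch 3 (5 strains each) it was lower in HIGH strains, at -0.33 on the log2 scale.

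No relation between the arms of miR-9 passed a test. Pearson's r between them was 0.16 (Spearman's rho 0.15) over all 59 strains, with permutation p-values of 0.229 and 0.242. After removal of batch shares r was -0.02 and rho -0.02 (permutation p = 0.876 and 0.873). Within the strains of batches 2, 3, 4 and 5 r was 0.10, 0.06, -0.01 and -0.24. The ratio of the 5p to the 3p arm ranged from 25.7 in LXS34 to 151 in LXS78, with a median of 56.4, and batch shares took 58.2% of its log2 variance. LXS78 combined a miR-9-5p signal of 722367, among the 3 highest, with the lowest miR-9-3p signal, 4770.

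For miR-124 the relation between the arms depended on the measure and the setting. Pearson's r was 0.09 and rho 0.08 over all strains (permutation p = 0.522 and 0.539), and after removal of batch shares r was -0.30 (permutation p = 0.0214) and rho -0.25 (permutation p = 0.0568). Without the 2 strains farthest from the median of miR-124-3p, r was -0.28 (permutation p = 0.0323). Within the strains of batches 2 to 5 r was -0.30, -0.40, -0.23 and -0.31, with no p under 0.05 in any of them. In limma, with miR-124-3p as the predictor, the relation had an adjusted p of 0.0496. That value became 0.0547 without a filter on low values, 0.105 with equal strain totals and 0.394 in the variance-stabilized table. With miR-124-5p as the predictor the adjusted p in limma was 0.144. The ratio of the 3p to the 5p arm ranged from 111 in LXS32 to 431 in LXS5, with a median of 258. LXS5 had a miR-124-3p signal of 132630, the largest deviation above its batches (0.96 on the log2 scale), at a miR-124-5p signal below what its batches gave.

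**Figure D3:**
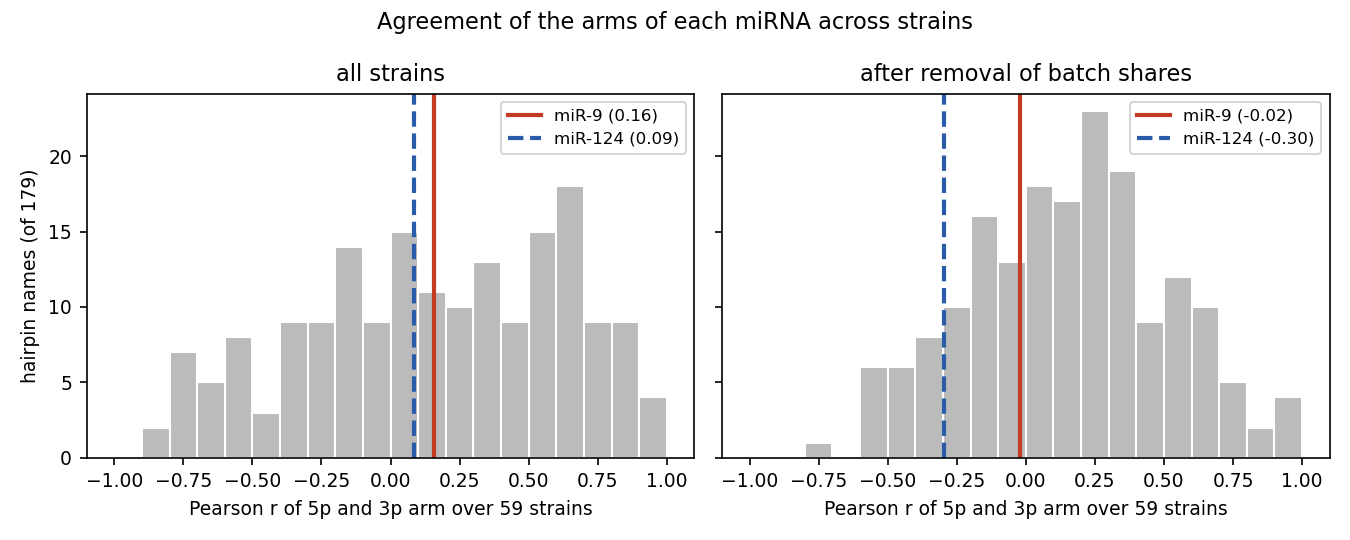
Pearson's r between the 5p and 3p arm over 59 strains for 179 hairpin names with both arms tested, before (left) and after (right) removal of batch shares; the vertical axis counts hairpin names. After removal of batch shares the miR-9 line stands at -0.02 and the miR-124 line at -0.30, both left of the median of 0.16.

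Set beside the other miRNAs, weak agreement of arms was common. Over 179 hairpin names with both arms tested, the median r was 0.16 before removal of batch shares and 0.16 after it. After removal, 121 hairpins had a higher r than miR-9 and 157 a higher r than miR-124. Among the 69 hairpins whose arms both average a signal of at least 300, 39 had a higher r than miR-9 and 58 a higher r than miR-124. These are counts over miRNAs of the same libraries and carry no test. The miR-124 arms also differed more in abundance than those of most hairpins, since 27 of 179 had a larger ratio between the means of their arms and 58 had a larger one than miR-9.

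Across the 2 families, miR-124-3p and miR-9-3p had a weak positive relation, by permutation p-values that were not adjusted for the number of pairs. Among 6 pairs of arms compared, this pair had r = 0.34 and rho = 0.36 after removal of batch shares (permutation p = 0.00923 and 0.00557), and r = 0.29 without the 2 strains farthest from the median (permutation p = 0.0277). Among strains with main batch 2 to 5 r was 0.42, 0.31, 0.29 and 0.51 (permutation p = 0.169, 0.235, 0.439 and 0.0298). Before removal r was 0.31 and rho 0.32 (permutation p = 0.0180 and 0.0131), and without the 2 farthest strains r was 0.24 (permutation p = 0.0673). By contrast, miR-9-5p and miR-124-3p gave r = 0.55 and rho = 0.56 over all strains (permutation p = 4e-05 and 2e-05), and r = 0.25 and rho = 0.24 after removal (permutation p = 0.0598 and 0.0723). Among strains with the same main batch (2 to 5) that relation did not hold, with r of -0.04, -0.11, 0.05 and -0.50 (permutation p = 0.898, 0.684, 0.887 and 0.0328). These groups still mix batches, so their r is not free of batch. miR-9-5p and miR-124-5p gave r = 0.61 and rho = 0.45 over all strains (permutation p = 1e-05, the smallest that the resamples can give, and 0.00039). After removal they gave r = 0.21 and rho = 0.18 (permutation p = 0.117 and 0.176). By main batch, with the same limit, r was 0.60, 0.60, -0.02 and 0.33 (permutation p = 0.0361, 0.0136, 0.957 and 0.180). miR-9-3p and miR-124-5p gave r = 0.05 and rho = 0.02 over all strains (permutation p = 0.692 and 0.864) and r = -0.10 and rho = -0.07 after removal (permutation p = 0.468 and 0.606). Among strains with main batch 2 to 5, with the same limit, their r was -0.08, 0.21, 0.25 and -0.59 (permutation p = 0.795, 0.441, 0.515 and 0.00894).

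To place these pairs among all features, each feature's log2 signal was fitted in limma on the signal of an arm with batch shares as covariates. miR-124-3p was related to 382 of 646 features at an adjusted p under 0.05 (59.1%), with 184 positive and 198 negative slopes. miR-9-3p was among them, with a slope of 0.31 (SE 0.12, adjusted p = 0.0186), and so was miR-124-5p with a slope of -0.18 (SE 0.08, adjusted p = 0.0496). Both stand against a background in which most features were related to miR-124-3p. miR-9-5p had a slope of 0.14 (SE 0.07, adjusted p = 0.103). The call of miR-124-5p was also lost without batch shares, where the slope was 0.051 (adjusted p = 0.555).

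The other arms were related to fewer features. miR-9-5p was related to 16.7% of 646 features (53 with positive and 55 with negative slopes), miR-9-3p to 6.81% (44, of which 28 and 16) and miR-124-5p to 4.49% (29, of which 20 and 9). No member was called in any of these fits. With all strains scaled to the same total, which the authors' scaling leaves between 12164326 and 15093719, the numbers with positive and negative slopes became 21 and 2 for miR-9-5p, 106 and 4 for miR-9-3p and 159 and 5 for miR-124-5p. miR-124-3p was then called in the fit on miR-9-3p (slope 0.33, adjusted p = 0.0354), as it was in the variance-stabilized table (0.38, adjusted p = 0.0468).

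**Figure D4:**
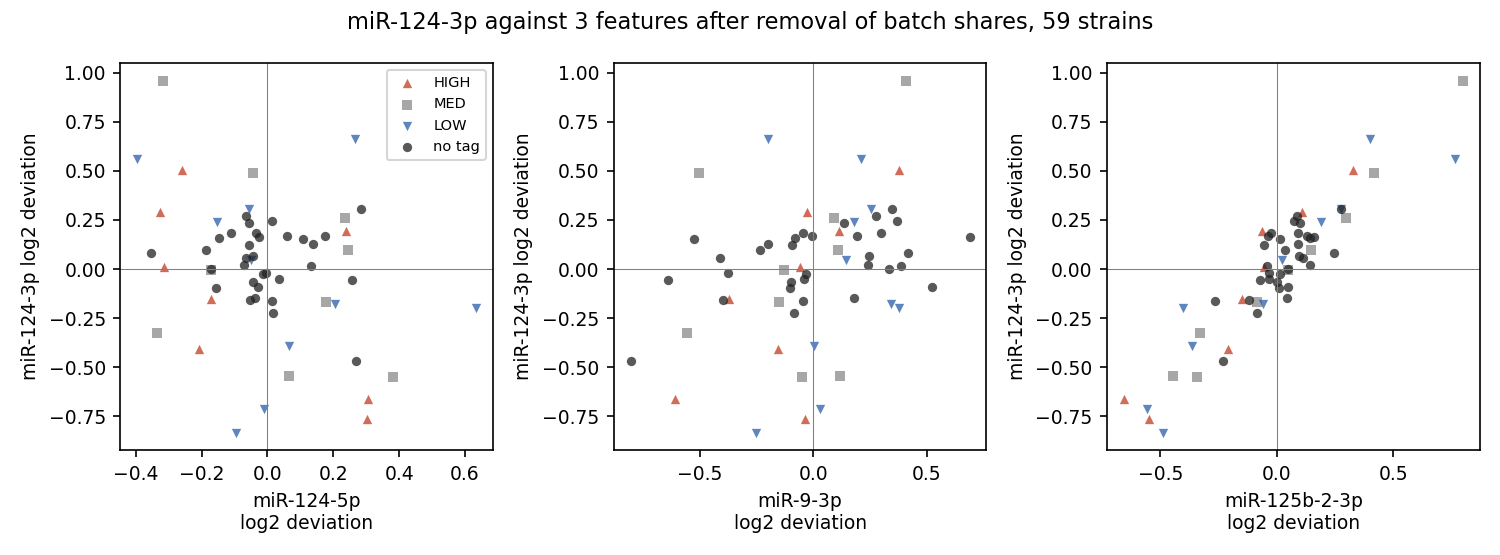
log2 deviation of miR-124-3p from the value that batch shares give (vertical axis) against the same deviation of miR-124-5p (left), miR-9-3p (middle) and miR-125b-2-3p (right), with 1 point for each of 59 strains. The points fall along a line for miR-125b-2-3p (r = 0.92) and scatter widely for miR-9-3p (r = 0.34) and miR-124-5p (r = -0.30).

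The features most like each arm were taken by Spearman's rho over all strains, without a test. Nearest to miR-124-3p were miR-135b-5p (rho 0.90), miR-125b-2-3p (0.89) and miR-106b-5p (0.86, a member of the cluster hosted by Mcm7). Their Pearson's r after removal of batch shares was 0.92, 0.92 and 0.84. For miR-125b-2-3p r was 0.97, 0.93, 0.40 and 0.76 among strains with main batch 2 to 5. Of the 646 other features, 13 had an r above 0.8 with miR-124-3p after removal and 3 an r below -0.8, while none did with miR-9-5p, miR-9-3p or miR-124-5p. Nearest to miR-9-5p were miR-30a-5p (rho 0.90), miR-551b-3p (0.87) and miR-24-2-5p (0.84), of which batch shares took 71.7%, 83.7% and 85.4% of the variance. After removal their r with miR-9-5p was 0.62, 0.38 and 0.19, and the highest r of any feature was that of miR-341-3p (0.71). Nearest to miR-9-3p were miR-145a-3p (rho 0.52), miR-376c-3p (0.49) and miR-374b-5p (0.46). Nearest to miR-124-5p were miR-186-3p (rho 0.59), miR-331-3p (0.59) and miR-5621-3p (0.54), while after removal its highest r was with miR-137-5p (0.53).

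The spread of the main arms between strains also differed by batch. The SD of miR-124-3p on the log2 scale was 0.44 and 0.43 among strains of batches 2 and 3, against 0.10 and 0.19 among strains of batches 4 and 5. For miR-9-5p these SDs were 0.35, 0.33, 0.11 and 0.13, and for miR-9-3p 0.27, 0.28, 0.28 and 0.42. These SDs are not corrected for batch shares, and strains of batches 2 and 3 mix batches. The fitted miR-9-5p signal for a strain with all libraries in 1 batch was 532857.4 in batch 2 and 211116.5 in batch 3. It was 629200.4 in batch 4 and 615551.5 in batch 5. The part of this mixing in the SDs was not tested. Since tagged strains lie mostly in batches 2 and 3, batch and tag cannot be told apart here either. The strains that stand farthest from their batches in miR-124-3p carry tags: LXS5 (MED) and LXS114 (LOW) above, and LXS19 (LOW) and LXS32 (HIGH) below.

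Other miRNAs with known cell types moved with miR-124-3p in both directions. Of 10 neuron-enriched miRNAs tested, 3 had a positive and 2 a negative slope at an adjusted p under 0.05, led by miR-153-3p (0.70, SE 0.07, adjusted p = 9.50e-12) and miR-132-3p (-1.03, SE 0.18, adjusted p = 1.55e-06), an activity-induced miRNA. Of 12 choroid plexus and olfactory miRNAs, 3 had positive and 2 negative slopes, with miR-204-5p, a choroid plexus miRNA, at -0.70 (SE 0.08, adjusted p = 3.42e-10) and miR-34c-5p, of ciliated cells, at 0.60 (SE 0.09, adjusted p = 1.29e-07). Called with positive and negative slopes were 2 and 1 of 4 oligodendrocyte miRNAs, 5 and 2 of 8 vascular and erythroid, 3 and 2 of 6 microglia and blood, 0 and 1 of 3 hindbrain, and 3 and 0 of 4 astrocyte and progenitor miRNAs. Against the 59.1% of all features none of these shares is read as particular to its list. The summed signal of the choroid plexus and olfactory list ran from 66997 to 1514560 among strains of batch 5 alone, and its part in the relations was not tested.

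The mRNA values are gene-level log2 expression values, in which 20617 genes at or above 6 in at least 5 of 23 profiles were tested, all 4 mRNA members among them. ILS replicate 4 stood apart: its mean over 8 cerebellar granule and Purkinje markers was 7.67, against 9.44 to 9.97 in every ISS, LXS80 and LXS41 profile. Values without it are given where they bear on a result. ILS profiles carry the set numbers 1 and 11 in their column names and ISS profiles 1 and 15, so only set 1 holds both parents, while LXS80 (sets 3 and 14) and LXS41 (sets 1, 6 and 9) share none. The labels do not say that profiles come from separate animals, so p-values measure the spread between the profiles as named. All 9 neuron markers were measured, with a mean of 10.52 to 10.83 in every profile.

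Mir9-3hg, the miR-9 host, ran from 7.60 through a median of 7.88 to 7.96 in ILS profiles, against 7.91, 7.94 and 8.06 in ISS profiles. It averaged 7.85 ± 0.13 in ILS and 7.96 ± 0.06 in ISS (SD, n = 6 each), and the groups overlapped in part. ILS minus ISS was -0.11 on the log2 scale (95% interval -0.21 to -0.0042) and missed the threshold in limma (adjusted p = 0.226). Within set 1 every ILS profile (7.60 to 7.89) lay below every ISS profile (7.95 to 8.06), a difference of -0.22 (adjusted p = 0.316), while in the later sets the means were 7.93 in ILS and 7.92 in ISS. Without the ILS profile at 7.60 the difference was -0.06 (adjusted p = 0.477).

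Ptbp1, the splicing repressor targeted by miR-124, ran from 8.20 through 8.24 to 8.37 in ILS profiles, against 8.23, 8.32 and 8.46 in ISS profiles (8.27 ± 0.08 and 8.33 ± 0.08, SD, n = 6 each). The difference was -0.06 (-0.15 to 0.03, adjusted p = 0.516). Rest, the repressor targeted by miR-9, ran from 7.02 through 7.24 to 7.31 in ILS profiles, against 7.19, 7.30 and 7.52 in ISS profiles (7.21 ± 0.10 and 7.32 ± 0.12, SD, n = 6 each). The difference was -0.10 (-0.22 to 0.01, adjusted p = 0.299). Onecut2 ran from 7.11 through 7.25 to 7.33 in ILS profiles, against 6.95, 7.06 and 7.19 in ISS profiles (7.24 ± 0.08 and 7.06 ± 0.10, SD, n = 6 each), and was the only one of the 4 with the higher mean in ILS. Its difference was 0.18 (0.04 to 0.32, adjusted p = 0.122). It was 0.08 in set 1 and 0.28 in the later sets, and neither this difference between sets nor that of Mir9-3hg passed a limma interaction test (unadjusted p = 0.0789 and 0.0466, adjusted p = 1.00 for both). None of the 4 members was called, in a comparison that called 7.6% of the 20617 genes tested (698 higher and 869 lower in ILS). The parents share no set after set 1, so strain and set cannot be told apart in the later sets. With set as a term 496 genes were called, and in set 1 alone 294, with no member among them. Calls of other genes between the parents, given below, use profiles of all sets.

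**Figure D5:**
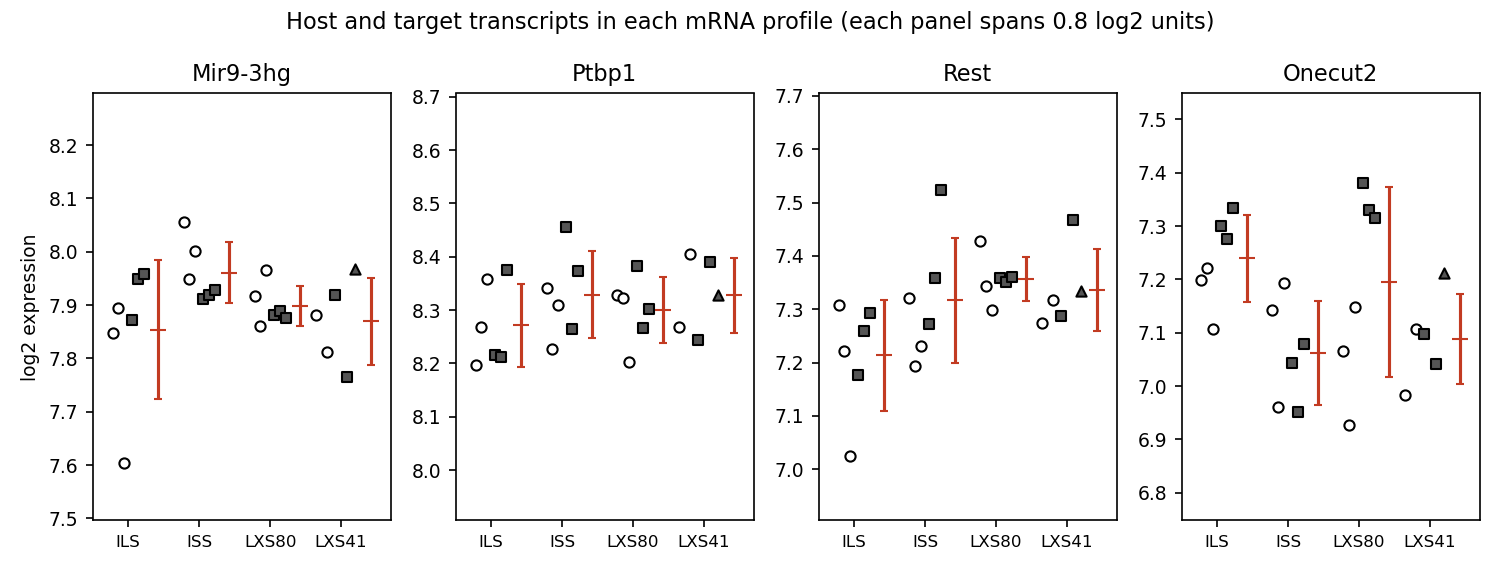
log2 expression of Mir9-3hg, Ptbp1, Rest and Onecut2 in each profile of ILS, ISS, LXS80 and LXS41, with 1 panel per gene. Open circles, filled squares and filled triangles are successive sets of a strain in order of set number, and the bar to the right is the mean ± SD. Onecut2 has its highest LXS80 values, 7.32 to 7.38, in 1 set and its lowest, 6.93 to 7.15, in the other.

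LXS80 and LXS41 differed less for these genes than the profiles of 1 strain did among themselves. Mir9-3hg ran from 7.86 through 7.89 to 7.96 in LXS80 profiles, against 7.88, 7.81, 7.92, 7.77 and 7.97 in LXS41 profiles. Ptbp1 ran from 8.20 through 8.31 to 8.38 in LXS80, against 8.27, 8.40, 8.24, 8.39 and 8.33 in LXS41. Rest ran from 7.30 through 7.36 to 7.43 in LXS80, against 7.27, 7.32, 7.29, 7.47 and 7.33 in LXS41. The groups overlapped for each of them. LXS80 minus LXS41 was 0.03 for Mir9-3hg (95% interval -0.08 to 0.14, adjusted p = 0.728), -0.03 for Ptbp1 (-0.12 to 0.07, adjusted p = 0.719) and 0.02 for Rest (-0.10 to 0.14, adjusted p = 0.824).

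Onecut2 had the largest SD of the 4 in LXS80 (0.18) and, by a small margin, in LXS41 (0.085), though not in ILS or ISS. In LXS80 it ran from 6.93 through 7.23 to 7.38, and the 3 profiles of set 14 (7.38, 7.33 and 7.32) all lay above the 3 of set 3 (7.06, 6.93 and 7.15). In the 5 LXS41 profiles it ran from 6.98 to 7.21. The difference was 0.11 (-0.04 to 0.25, adjusted p = 0.298). LXS80 minus LXS41 called 20.7% of the genes, 3847 higher and 419 lower in LXS80, with a median over all genes of 0.06. With quantile normalization the calls were 753 higher and 457 lower. Without LXS41 replicate 1, LXS41 replicate 4 or LXS80 replicate 6 the calls numbered 2057, 2255 and 2567. Strain and set cannot be told apart in this pair.

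An F test over the 4 strains called 22.6% of the genes and none of the members. By strain mean, Onecut2 ordered as ILS (7.24), LXS80 (7.19), LXS41 (7.09) and ISS (7.06), with F = 3.03 and adjusted p = 0.126. Rest ordered as LXS80 (7.36), LXS41 (7.34), ISS (7.32) and ILS (7.21), with adjusted p = 0.155, and Mir9-3hg as ISS (7.96), LXS80 (7.90), LXS41 (7.87) and ILS (7.85), with adjusted p = 0.296. Ptbp1 spanned only 8.27 in ILS to 8.33 in ISS (adjusted p = 0.637). Neighbours in these orders differed by less than the SD of either strain with 2 exceptions. The step of Mir9-3hg between ISS and LXS80 was larger than both SDs, and that of Onecut2 between LXS80 and LXS41 was larger than the SD of LXS41 only. Without LXS80 replicate 2, Onecut2 passed the F test (F = 5.02, adjusted p = 0.0427) and calls over all genes numbered 3103 without LXS41 replicate 1, against 4668 with every profile.

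LXS80 and LXS41 are the only strains of the mRNA profiles used that are also in the miRNA table. With these strains alone, arms and transcripts can be set side by side but not correlated. LXS80 had the higher signal of miR-9-5p (519190 against 456135 in LXS41), of miR-124-3p (106508 against 88467) and of miR-124-5p (504 against 486), and the lower signal of miR-9-3p (8787 against 10277). These differences, 0.19, 0.27, 0.05 and -0.23 on the log2 scale, are small among strains: of 1711 pairs of strains, 1269, 1072, 1483 and 1084 lay farther apart. The targets Ptbp1, Rest and Onecut2 and the host Mir9-3hg differed between the same strains by -0.03, 0.02, 0.11 and 0.03, none of them called.

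The genes whose deviations from the strain means were most like those of a member over the 23 profiles were taken from all 20617 genes without a test. They were Cacna1d (r = 0.83), Iffo2 (0.76) and Gm8801 (0.75) for Mir9-3hg, and Gm20501 (0.79), Rps10-ps3 (0.75) and Llcfc1 (0.74) for Ptbp1. For Rest they were Fignl2 (0.84), Chst12 (0.82) and Iba57 (0.80), and for Onecut2 Nsun3 (0.79), Lrrn3 (0.78) and Cwf19l2 (0.76). Cacna1d encodes an L-type calcium channel. None of the 12 was called in ILS minus ISS. Between members, r of these deviations ran from -0.38 (Mir9-3hg and Ptbp1) to 0.42 (Mir9-3hg and Onecut2).

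Of other host and precursor transcripts, C130071C03Rik, which holds Mir9-2, averaged 8.86 ± 0.09 in ILS and 8.97 ± 0.18 in ISS (SD, n = 6 each), a difference of -0.11 (adjusted p = 0.432). It averaged 8.96 ± 0.07 in LXS80 (n = 6) and 8.72 ± 0.17 in LXS41 (n = 5), where it was 0.24 higher in LXS80 (adjusted p = 0.0274). Under quantile normalization that call was lost (0.14, adjusted p = 0.215). Mir124a-1hg, the host of a miR-124 hairpin, differed by 0.08 between ILS and ISS (adjusted p = 0.588) and by -0.09 between LXS80 and LXS41 (adjusted p = 0.384). The row named for the Mir9-3 hairpin itself averaged 5.78 ± 0.31 in ILS and 6.23 ± 0.23 in ISS, near the filter on low values (-0.45, adjusted p = 0.126).

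Among 20 transcripts listed as miR-124 targets from earlier work, 19 were tested, 1 was higher and 4 were lower in ILS than in ISS, at a median difference of -0.06 against -0.01 over all genes, of which 7.6% were called. Vamp3, a vesicle fusion protein of non-neuronal cells, averaged 8.94 ± 0.10 in ILS and 9.28 ± 0.10 in ISS and fell by 0.34 (SE 0.06, adjusted p = 0.000346), with all ILS profiles (8.79 to 9.07) below all ISS profiles (9.14 to 9.40). Iqgap1, a cytoskeletal scaffold, averaged 7.90 ± 0.08 in ILS and 7.62 ± 0.03 in ISS and was 0.27 higher (SE 0.05, adjusted p = 0.000369). Lower in ILS were also Actl6a, a chromatin remodelling subunit replaced in neurons (-0.24, adjusted p = 0.00436), and the integrin Itgb1 (-0.17, adjusted p = 0.0231). Without ILS replicate 4, 2 were higher and 3 lower, and with quantile normalization 3 were higher and 5 lower. In LXS80 against LXS41, 6 of the 19 were higher and 0 lower, where 20.7% of all genes were called and 90.2% of those were higher in LXS80. Vamp3 was among them with 9.27 to 9.48 in LXS80 profiles and 8.83 to 9.18 in LXS41 profiles (0.34, adjusted p = 0.000692). With quantile normalization 1 was higher (Vamp3) and 1 lower (Iqgap1).

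Of 20 listed miR-9 targets, 19 were tested, and 0 were higher and 2 lower in ILS, at a median of -0.04, against 7.6% called over all genes. These were Actl6a, which is on both target lists, and Stmn1, a microtubule destabiliser of growing neurons (8.39 ± 0.26 in ILS and 8.88 ± 0.22 in ISS, -0.48, SE 0.11, adjusted p = 0.00851). Of 15 REST corepressor genes 1 was higher (Hdac1, a histone deacetylase, 0.34, adjusted p = 0.0367) and 1 lower in ILS (Rcor3, a CoREST family member, -0.18, adjusted p = 0.0141). Of 16 REST-repressed neuronal genes 1 was higher, the sodium channel Scn2a (10.87 ± 0.08 in ILS and 10.72 ± 0.08 in ISS, 0.16, adjusted p = 0.0345), and 0 were lower. Hdac1 and Scn2a were not called without ILS replicate 4 (adjusted p = 0.0662 and 0.0565). Of 12 polypyrimidine tract binding and neural splicing genes 0 were called, and of 11 miRNA processing genes 1, the Argonaute Ago3, was higher in ILS (0.33, SE 0.05, adjusted p = 9.15e-05). With quantile normalization 1 miR-9 target was higher and 3 lower in ILS, 2 corepressor genes were higher and 1 lower, and 2 REST-repressed genes and 1 splicing gene were higher. Called as higher in LXS80 than in LXS41, with none lower, were 2 of 19 miR-9 targets, 6 of 15 corepressor genes, 6 of 16 REST-repressed genes, 5 of 12 splicing genes and 5 of 11 processing genes. Over all genes 20.7% were called, 3847 higher and 419 lower, so neither these shares nor their direction is read as particular to the lists. With quantile normalization these became 0, 2, 0, 2 and 0 higher, with 1 corepressor gene (Rcor3) lower.

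Some cell type markers also differed between the parents. The counts below stand against 7.6% of all 20617 genes tested that were called in ILS minus ISS. In ILS against ISS, 3 of 8 microglia markers were higher (C1qc by 0.57, adjusted p = 1.79e-06, and Aif1 by 0.41, adjusted p = 4.57e-05). The other 5 included Cx3cr1 at -0.17, C1qa at -0.13, Itgam at -0.10 and Tmem119 at -0.03, none of them called, and the median of the list was 0.01, or -0.02 without ILS replicate 4. In ILS 4 of 6 choroid plexus markers were lower (Kl at -0.61, adjusted p = 0.000450, and Folr1 at -0.29, adjusted p = 0.000161). Lower were 2 of 10 astrocyte and progenitor markers (Sox2 at -0.29 and Aqp4 at -0.26) and 1 of 7 oligodendrocyte markers (Mobp at -0.24). Higher was 1 of 9 neuron markers (Slc17a7 by 0.20), while Slc17a6 (-0.24), Slc32a1 (-0.09), Gad1 (-0.07) and Gad2 (-0.05) had lower means in ILS and were not called. Of 6 endothelial and erythroid markers 0 were called, and of 8 cerebellar markers 0, at a median of -0.30. Without ILS replicate 4, 1 astrocyte and progenitor marker and 0 oligodendrocyte markers were called, 1 endothelial marker (Cldn5) was lower in ILS, and the cerebellar median was 0.04. The mean of the choroid plexus markers ran from 8.37 to 8.74 in ILS profiles and from 8.76 to 8.94 in ISS profiles. The part of these markers in the differences of the target lists was not tested.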

How the data were processed

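Small RNA libraries were made with a TruSeq small RNA kit, per the labels' protocols. The authors deposited a normalized signal and a variance-stabilized log2 value for each feature and strain, by steps not given in the sources used here, and log2 expression values per gene for mRNA. Of 399 mRNA columns, 376 were not used, mostly where a strain has more columns than labelled small RNA libraries. The 23 columns used were tied to a strain by the name in the column, not to a labelled sample. A library with conflicting names was left out. miRNA fits used log2(signal + 1) of 647 features with a mean of at least 10, with the share of a strain's libraries in each batch as covariates, and a fold on this scale understates the change of low features. Fits used limma 3.58.1 (trend, robust; statmod 1.5.0) in R 4.3.3, with Benjamini-Hochberg adjustment over all features and a threshold of 0.05, and were tested on simulated data. Correlations used 100000 two-sided permutations, or all pairings in batch 4 (n = 9). The main batch of a strain holds the largest share of its libraries, which need not be a majority. Named features were the members, the 3 most like each, the 3 extreme strains per arm and the 2 smallest p-values per list, with further list members and strains named after their values were seen. The members and the 14 gene and 7 miRNA lists were chosen with earlier results of these data known. Sequences are from RefSeq (GRCm38.p6). The values of 1 called miR-124 target are not reported here.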

Additional observations from a re-analysis of the deposited data

Results flagged for a closer look

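Among the 23 mRNA profiles, 1 value of a member stood apart within its group. In ILS replicate 3, Mir9-3hg was at 7.60 on the log2 scale, while the other 5 ILS profiles lay between 7.85 and 7.96, and the gap to the nearest of them took 0.687 of the range, above Dixon's critical value of 0.625 for 6 samples. The same profile also had the lowest ILS value of Rest (7.02) and of Onecut2 (7.11). Of 28 groups examined in this way, 1 was marked, where chance marks about 1 in 20.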

How the results depend on the processing

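No paired analysis was possible because the miRNA tables hold 1 value per strain and the mRNA columns carry no replicate number that the labels share between strains. Of 472 values of members under alternative settings, 459 stayed on their side of the threshold, 9 passed it only under the alternative, 3 no longer passed and 1 reversed. That one was the slope of miR-124-5p on miR-124-3p, which was 0.051 without batch shares. Of the 459, 17 had another sign under the alternative, all of them below the threshold under both settings. At a mean of at least 100, where fewer features were tested, 363 of 404 were related to batch and 252 of 403 to miR-124-3p. Members called in the fit on miR-124-3p numbered 1 without a filter, with variance-stabilized values and with equal strain totals. With variance-stabilized values, 1 member was called on miR-9-5p and 1 on miR-9-3p, with 116 features for miR-9-3p and 15 for miR-124-5p. With equal strain totals, 23 features were related to miR-9-5p, 110 and 1 member to miR-9-3p, and 164 to miR-124-5p. Without batch shares these were 476 and 2 members for miR-9-5p, 10 for miR-9-3p, and 143 and 1 member for miR-124-5p. Without the 2 farthest strains they were 19 for miR-9-3p and 8 for miR-124-5p. In mRNA, LXS80 minus LXS41 called 1210 genes after quantile normalization, and ILS minus ISS called 496 with set as a term, 294 in set 1 alone and 283 in the later sets. Leaving out 1 profile at a time gave 1240 to 1644 calls for ILS minus ISS, 2057 to 4653 for LXS80 minus LXS41, and 3103 to 5054 with 0 to 1 members for the strain F test. The cause of these shifts was not tested. Read depth behind the miRNA values is unknown, so counting error could not be given.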
